A study of Mus musculus with 28 samples.

Results

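The BCL2 family genes are a set of 10 mouse genes that encode survival and death regulators of the mitochondrial apoptosis pathway. They were chosen by name, with earlier results of these data known, so counts of called members below are descriptive. The set comprised the pro-survival genes Bcl2, Bcl2l1, Mcl1, Bcl2a1b and Bcl2a1d, the BH3-only genes Bcl2l11, Bbc3 and Pmaip1, and the effector genes Bax and Bak1. Of these 10, 8 were among the 13103 genes of the deposited expression table, and all 8 passed the filter on low values that left 11379 genes for testing; Pmaip1 and Bak1 were not analysed here.

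The study measured RNA by sequencing in regulatory T cells (Tregs, CD4+ T cells that express the transcription factor Foxp3 and restrain immune responses). Foxp3-GFP reporter mice, in which Foxp3-expressing cells are green, carried intradermal tumors grown from B16 cells, a mouse melanoma line. GFP+ cells of tumor and spleen were sorted into a gate with high and a gate with low staining for OX40, a costimulatory receptor of the tumor necrosis factor receptor family encoded by Tnfrsf4. This gave 4 groups, named here as the labels name them: tumor OX40plus and tumor OX40minus from 4 mice each, and spleen OX40plus and spleen OX40minus from 3 mice each. Every spleen came from a tumor-bearing mouse, no spleen of a tumor-free mouse was analysed here, and OX40minus is the low-staining gate rather than cells without OX40. Each mouse and gate had 2 libraries, which were averaged into 1 sample, so that 28 libraries gave 14 samples.

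BCL2 family proteins decide whether the outer membrane of the mitochondrion stays intact. Pro-survival members hold the effectors BAX and BAK in check, BH3-only members bind and neutralise the pro-survival members or activate the effectors directly, and permeabilised mitochondria release cytochrome c, which starts the caspase cascade. In T cells, BCL2 is known as the survival protein maintained by interleukin-7 in resting cells, BCL-XL and A1 as survival proteins induced by activation and costimulation, and MCL1 and BIM as opposing regulators of Treg survival. OX40 signalling is known from the literature to sustain BCL2, BCL-XL and survival in activated conventional T cells.

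The levels below are CPM (counts of a gene scaled to a common library size), back-transformed from the deposited log2 values, and rest on 22.4 M to 29.7 M estimated counts per sample. At this depth 3 counts correspond to 0.104 to 0.130 CPM, far below every member. The target of the sort followed the gates within each tissue: mean Tnfrsf4 was 253 CPM in spleen OX40minus, 704 in spleen OX40plus, 1950 in tumor OX40minus and 3357 in tumor OX40plus, so that the tumor OX40minus gate held more Tnfrsf4 RNA than the spleen OX40plus gate. Summed Treg markers (Foxp3, Il2ra, Ctla4, Ikzf2, Cd3e, Cd4) were 3137 to 3354 CPM in spleen OX40minus and 3681 to 4125 in spleen OX40plus. In tumor they were 7018 to 7547 CPM in OX40minus and 7832 to 8264 in OX40plus, and the 4 ranges did not overlap. Of the 6 genes, 1 was called higher and 1 lower in tumor OX40plus than in tumor OX40minus, and 1 higher in spleen OX40plus. Between tissues 3 were called higher in tumor OX40minus, and 3 higher and 1 lower in tumor OX40plus. Of all tested genes 42.3%, 8.99%, 62.8% and 68.4% were called, in the same order. Foxp3 itself was called in none of these comparisons. 3 samples stood apart from the other mice of their group: tumor OX40plus mouse 4, with a median chi-square per gene of 6.91 to 12.8 against the other mice (4.71 to 6.59 among those), spleen OX40minus mouse 1, with 2.87 and 3.75 (1.47 between the others), and spleen OX40plus mouse 3, with 4.45 and 6 (1.43 between the others) and a Foxp3 level of 129.7 CPM against 31.8 and 32.1. Without all 3, chosen after seeing the data, the counts of called members given below were 7 in tumor, 3 in spleen, 8 and 8 between tissues and 1 for the interaction; with spleen OX40minus mouse 1 kept, they were 7, 5, 8, 8 and 2. RNA of genes listed as markers of other cell types was also present. The summed level of 10 macrophage markers was 1111 to 1394 CPM in spleen OX40minus against 323 to 520 in spleen OX40plus, and 652 to 783 in tumor OX40minus against 333 to 409 in tumor OX40plus, with 9 of the 10 lower in the OX40plus gate of each tissue. The summed level of 5 B cell markers was 353 to 517 CPM in the spleen samples and 0.355 to 1.90 CPM in the tumor samples, all 5 being lower in tumor in both gates. The summed level of 6 dendritic cell markers was 43.1 to 49.1 CPM in spleen OX40minus against 14.6 to 19.2 in spleen OX40plus, where none was called, and 134 to 193 in tumor OX40minus against 37.9 to 67.2 in tumor OX40plus, where 4 were lower. Neutrophil markers summed to 38.7 to 53.8 CPM in spleen OX40minus, 21.3 to 28.9 in spleen OX40plus, 4.42 to 10.7 in tumor OX40minus and 3.84 to 4.67 in tumor OX40plus, and 2 of the 5 tested were lower in tumor OX40plus. Melanoma markers summed to 12.6 to 22.4 CPM in spleen and 69.3 to 184 in tumor. Of the 6, 5 were higher in tumor in both gates, and 1 was lower in tumor in OX40minus. Of 7 NK cell markers 4, and of 2 CD8 T cell markers 1, were lower in tumor OX40plus than in tumor OX40minus, with overlapping sums. These marker lists move with the same contrasts as the members below, and their part in the members' differences was not tested. In bulk RNA of sorted cells, fewer cells of a type and less RNA per cell cannot be told apart.

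2 of the 8 members are near-copies of each other, which bears on how their values can be read. Bcl2a1b and Bcl2a1d encode A1, an activation-induced pro-survival protein that occurs in mouse as a cluster of duplicated genes on chromosome 9, with Bcl2a1a as another copy. The first 90 coding bases of the 3 genes, all within 1 coding exon, are shown 5′ to 3′ because they hold 6 of the 12 positions of the 519-base coding sequence at which the copies differ (GRCm38, GENCODE vM21). They lie at chr9:88957051-88957140 on the plus strand for Bcl2a1a, chr9:89199360-89199449 on the plus strand for Bcl2a1b and chr9:88731630-88731719 on the minus strand for Bcl2a1d, and capitals mark the positions that differ among the copies.
Bcl2a1a: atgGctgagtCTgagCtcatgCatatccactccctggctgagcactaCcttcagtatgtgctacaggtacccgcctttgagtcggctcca
Bcl2a1b: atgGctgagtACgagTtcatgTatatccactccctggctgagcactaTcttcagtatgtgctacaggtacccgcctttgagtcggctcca
Bcl2a1d: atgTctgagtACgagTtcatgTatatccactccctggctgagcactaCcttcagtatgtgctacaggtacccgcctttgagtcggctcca
The coding sequences of Bcl2a1b and Bcl2a1d differ at 6 bases (98.8% identity), with a longest identical stretch of 217 bases, and those of Bcl2a1a and Bcl2a1d at 7 bases (98.7% identity). Of all 31-base stretches in the annotated transcripts, 88.8% for Bcl2a1b and 89.1% for Bcl2a1d also occur in another gene, so their reads are assigned largely by estimation and the split between the copies is uncertain. For the other members the shared part was 11.1% for Bax, mostly with the overlapping annotation Gm45808, 6.21% for Bcl2, and between 0% and 0.498% for Mcl1, Bcl2l11, Bcl2l1 and Bbc3.

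Within tumors, the 2 OX40 gates differed in 7 of the 8 members, 3 of them higher and 4 lower in OX40plus (limma, adjusted p under 0.05). In the same comparison 42.3% of all tested genes were called, and the median log2 fold change was −0.30 over the members and −0.06 over all tested genes. The pro-survival genes split: Bcl2 and Mcl1 were lower, and Bcl2l1, Bcl2a1b and Bcl2a1d were higher. The 2 A1 genes count as 2 members here and below, although most of their sequence is shared. Both BH3-only genes were lower, and Bax was not called.

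Within spleens, 5 members were called, against 8.99% of all tested genes. Bcl2l1, Bcl2a1b and Bcl2a1d were higher in OX40plus and Bcl2 and Bcl2l11 were lower, and in each of these 5 the 2 gates did not overlap, as in 33.5% of all tested genes. The median log2 fold change was 0.14 over the members and 0.01 over all tested genes. Mcl1, Bbc3 and Bax were not called. The count of 5 fell to 2 without spleen OX40minus mouse 3 or without spleen OX40plus mouse 3. Each of the 5 genes called in spleen was called in tumor too, in the same direction; of all 1023 genes called in spleen, 67.5% were, which is 14.4% of the 4812 called in tumor.

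Between tissues, all 8 members differed in both gates, 4 higher and 4 lower in tumor. The background was high in these comparisons, with 68.4% of all tested genes called in OX40plus and 62.8% in OX40minus, so a count of 8 called members says little by itself. Bcl2, Mcl1, Bcl2l11 and Bbc3 were lower in tumor, and Bcl2l1, Bcl2a1b, Bcl2a1d and Bax were higher.

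**Figure D1:**
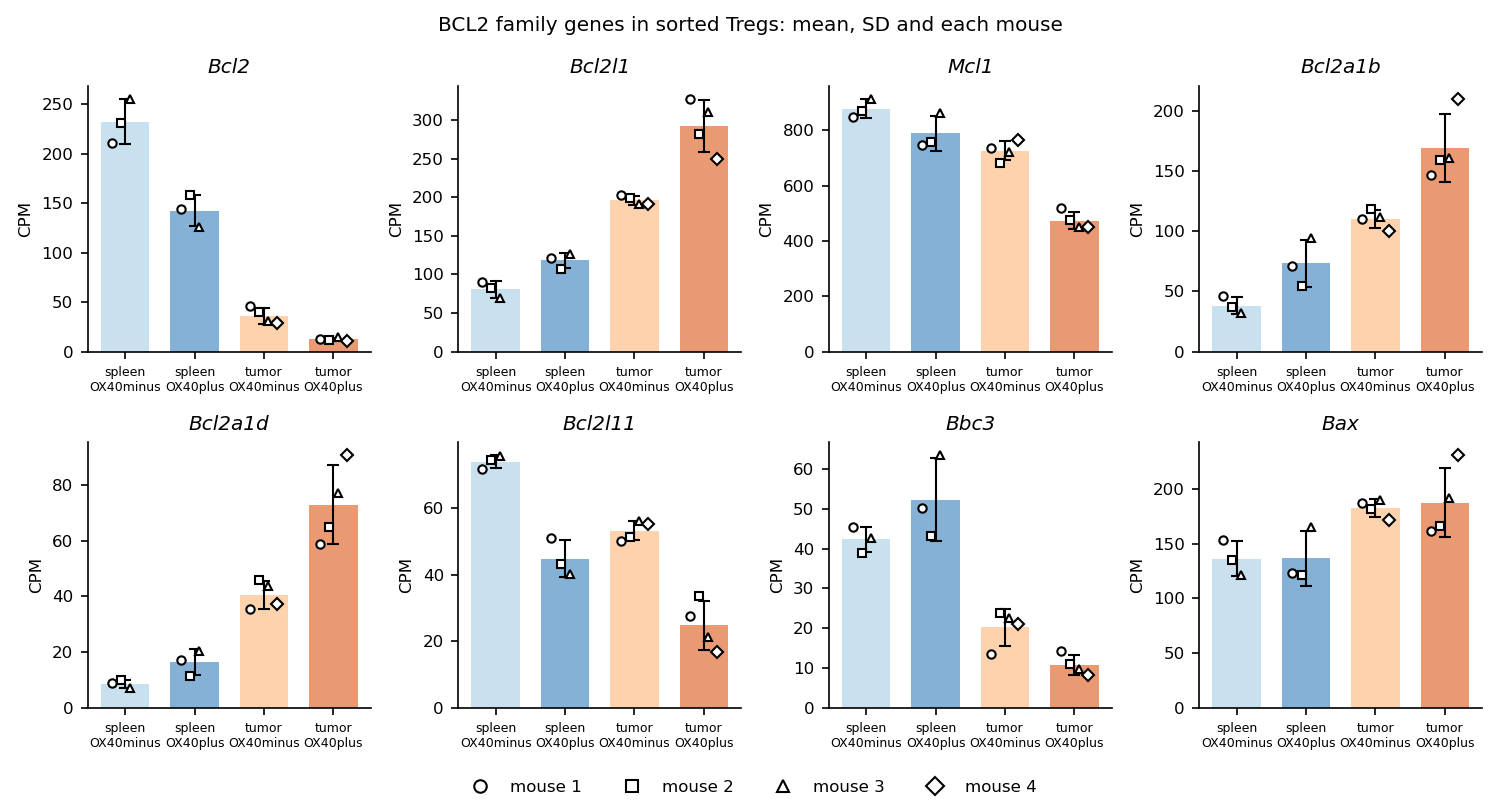
CPM of the 8 BCL2 family genes (linear axes from 0) in the 4 groups; bars are group means, error bars are SD over mice (3 per spleen group, 4 per tumor group) and each symbol is 1 mouse. Bcl2 steps down from 232 CPM in spleen OX40minus to 12.3 in tumor OX40plus, while Bcl2l1 steps up from 80.6 to 292.

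Bcl2, the founding pro-survival member (chromosome 1, 106538178 to 106714274, minus strand, GRCm38), had the widest fold range of the 8. It stood at 210, 231 and 256 CPM in the spleen OX40minus samples and at 144, 158 and 126 CPM in the spleen OX40plus samples. In tumor it stood at 46.3, 39.7, 30.4 and 29.3 CPM in OX40minus and at 12.5, 11.5, 14.4 and 10.6 CPM in OX40plus. The 4 groups were ordered without any overlap, tumor OX40plus lowest, then tumor OX40minus, spleen OX40plus and spleen OX40minus. Of all tested genes, 35.8% had no overlap between the tumor gates and 33.5% had none between the spleen gates. Between tissues the share was 66.5% in OX40plus and 66.8% in OX40minus. These shares are the background for the overlaps between those pairs of groups described for every member below. The share of genes with all 4 groups apart was not computed, nor that for spleen OX40plus against tumor OX40minus. Bcl2 was lower in OX40plus in tumor by a log2 fold change of −1.55 ± 0.15 (SE; limma, adjusted p = 9.05e-07; 4 of 4 mice). In spleen the log2 fold change was −0.71 ± 0.17 (limma, adjusted p = 0.0127; 3 of 3 mice), a call that was lost without the 3 samples that stood apart (limma, adjusted p = 0.0541), without spleen OX40minus mouse 3 (limma, adjusted p = 0.0719) or spleen OX40plus mouse 3 (0.0595). Against spleen, tumor OX40minus was lower by a log2 fold change of −2.69 ± 0.16 (limma, adjusted p = 5.32e-10) and tumor OX40plus by −3.54 ± 0.16 (limma, adjusted p = 1.67e-11). The OX40 difference itself was larger in tumor than in spleen, with an interaction of −0.85 ± 0.22 on the log2 scale (limma, adjusted p = 0.021). The gates were less far apart in Tnfrsf4 RNA in tumor, with a log2 fold change of 0.78 against 1.48 in spleen (interaction −0.69; limma, adjusted p = 0.0146). In that test of the difference between tissues 3 of the 8 members were called, all more negative in tumor, against 12.4% of all tested genes. The count was 1 without spleen OX40minus mouse 2, and the Bcl2 interaction was lost without spleen OX40minus mouse 1 or 2, without spleen OX40plus mouse 1 or 2, and without the 3 samples that stood apart (−0.80; limma, adjusted p = 0.0638). The 3 genes whose log2 CPM was most alike that of Bcl2 over the 14 samples were Il6ra, the interleukin-6 receptor chain (Pearson r 0.992), Arhgap17 (0.989) and Rassf2 (0.989), given as a description of samples that share 4 groups.

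Bcl2l1, which encodes BCL-XL (chromosome 2, 152780668 to 152831728, minus strand), ran in the opposite order. Its levels were 90.7, 81.8 and 69.2 CPM in spleen OX40minus and 121, 107 and 126 CPM in spleen OX40plus. In tumor they were 203, 199, 191 and 191 CPM in OX40minus and 328, 282, 310 and 250 CPM in OX40plus. Every sample of tumor OX40plus was above every sample of tumor OX40minus, which in turn was above both spleen groups, and the spleen gates did not overlap either. The OX40 difference was nearly the same in both tissues, a log2 fold change of 0.57 ± 0.10 in tumor (limma, adjusted p = 0.000257) and 0.56 ± 0.11 in spleen (limma, adjusted p = 0.00475). The interaction was 0.01 (95% interval −0.31 to 0.33; limma, adjusted p = 0.968). The tissue difference was 1.29 ± 0.11 in OX40minus and 1.30 ± 0.11 in OX40plus (limma, adjusted p = 3.18e-08 and 1.96e-08). H1f5, Ccdc92 and M6pr had the most similar profiles over the 14 samples.

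Set against each other within each sample, the 2 genes gave a log2 ratio of Bcl2l1 to Bcl2 of −1.53 ± 0.34 (SD, n = 3) in spleen OX40minus and −0.27 ± 0.28 (n = 3) in spleen OX40plus. The ratio was 2.45 ± 0.27 (n = 4) in tumor OX40minus and 4.58 ± 0.12 (n = 4) in tumor OX40plus. The ranges of the 4 groups did not overlap. CPM are not corrected for transcript length, so the change of this ratio between groups can be read and its absolute value cannot.

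**Figure D2:**
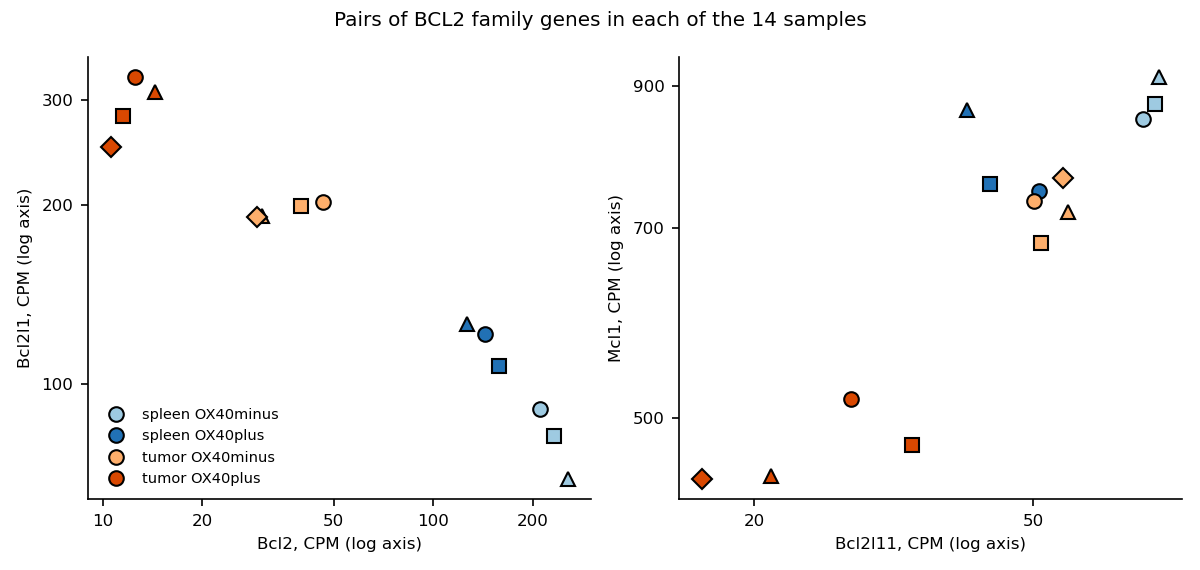
Bcl2l1 against Bcl2 (left) and Mcl1 against Bcl2l11 (right) in CPM on log axes, 1 symbol per sample, coloured by group and shaped by mouse. In the left panel the 4 groups lie apart along a falling diagonal, from spleen OX40minus at high Bcl2 to tumor OX40plus at 10.6 to 14.4 CPM; in the right panel the tumor OX40plus samples lie lowest on both axes.

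Mcl1, a short-lived pro-survival protein on which many lymphocytes depend (chromosome 3, 95658788 to 95663176, plus strand), stood at 849, 872 and 915 CPM in spleen OX40minus and at 748, 757 and 863 CPM in spleen OX40plus. In tumor it stood at 735, 682, 720.4 and 765 CPM in OX40minus and at 518, 477, 452 and 449 CPM in OX40plus. The tumor OX40plus samples lay below all others, whereas spleen OX40plus overlapped with both of its neighbours in the order, tumor OX40minus and spleen OX40minus. Within tumors Mcl1 was lower in OX40plus by a log2 fold change of −0.62 ± 0.08 (limma, adjusted p = 1.11e-05; 4 of 4 mice). In spleen the difference of −0.16 ± 0.09 was not called (95% interval −0.34 to 0.03; limma, adjusted p = 0.391). The interaction was −0.46 ± 0.12 (limma, adjusted p = 0.0164). Tumor was lower than spleen by −0.74 ± 0.08 in OX40plus (limma, adjusted p = 6.85e-07) and by −0.28 ± 0.08 in OX40minus (limma, adjusted p = 0.00769). Klf3, a transcriptional repressor (r 0.983), Fam189b and Txnip, which encodes a thioredoxin-binding protein, had the profiles most like that of Mcl1. Of 6 tested ubiquitin ligases, deubiquitinases and adaptors listed for MCL1 protein turnover, 4 were lower in tumor OX40plus than in tumor OX40minus and none was called in spleen, beside 21.8% of all tested genes lower in tumor and 8.99% called in spleen; an example is Trib1, a pseudokinase adaptor of protein degradation, with a log2 fold change of −0.94 (limma, adjusted p = 3.41e-06). Huwe1, a ubiquitin ligase of MCL1, was at a mean of 99.4 CPM in tumor OX40minus against 696 CPM in spleen OX40minus.

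Both A1 genes rose with the OX40 gate and with the tumor. Bcl2a1b (chromosome 9, 89199209 to 89207827, plus strand) was at 45.7, 37.0 and 31.9 CPM in spleen OX40minus and at 71.0, 54.7 and 93.8 CPM in spleen OX40plus. In tumor it was at 110, 119, 112 and 100 CPM in OX40minus and at 146, 159, 161 and 210 CPM in OX40plus. The 4 groups did not overlap and followed the same order as Bcl2l1. The log2 fold change between gates was 0.61 ± 0.15 in tumor (limma, adjusted p = 0.0049) and 0.92 ± 0.18 in spleen (limma, adjusted p = 0.00312). Between tissues it was 1.54 ± 0.17 in OX40minus (limma, adjusted p = 7.1e-07) and 1.23 ± 0.17 in OX40plus (limma, adjusted p = 6.48e-06). The profile most like it was that of Batf, an AP-1 family transcription factor of effector Tregs (r 0.990), followed by Cacna1s and Ncf4.

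Bcl2a1d (chromosome 9, 88723285 to 88731914, minus strand) was at 8.92, 9.92 and 6.95 CPM in spleen OX40minus and at 17.2, 11.4 and 20.5 CPM in spleen OX40plus. In tumor it was at 35.4, 45.8, 43.8 and 37.2 CPM in OX40minus and at 59.0, 65.0, 77.0 and 90.8 CPM in OX40plus. Its 4 groups were again apart, in the order of Bcl2a1b. The log2 fold change between gates was 0.84 ± 0.19 in tumor (limma, adjusted p = 0.00199) and 0.90 ± 0.22 in spleen (limma, adjusted p = 0.0132). The spleen call was lost under limma-voom (adjusted p = 0.0828) and without spleen OX40minus mouse 3, spleen OX40plus mouse 1 or spleen OX40plus mouse 3 (adjusted p = 0.0765, 0.0601 and 0.07), and without the 3 samples that stood apart (0.0728). Tumor exceeded spleen by 2.24 ± 0.20 in OX40minus and by 2.18 ± 0.20 in OX40plus (limma, adjusted p = 8.65e-08 and 8.38e-08). Fabp5, a fatty acid binding protein (r 0.986), Ninj2 and Abhd10 had the most similar profiles.

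The estimated split between the A1 copies differed between tissues, although the assignment of shared reads behind it cannot be checked. The log2 ratio of Bcl2a1d to Bcl2a1b was −2.15 ± 0.23 (SD, n = 3) and −2.17 ± 0.11 (n = 3) in the spleen groups and −1.45 ± 0.13 (n = 4) and −1.22 ± 0.11 (n = 4) in the tumor groups, OX40minus first. Bcl2a1a, the remaining copy in the table, was low, at 0.41 to 4.43 CPM over all samples. It went the other way in spleen, from 4.43, 3.39 and 2.80 CPM in OX40minus to 0.61, 0.41 and 1.03 CPM in OX40plus (log2 fold change −2.50 ± 0.51; limma, adjusted p = 0.00419). In tumor Bcl2a1a was not called (−0.42 ± 0.44; limma, adjusted p = 0.467). With the 3 copies summed, a step added after the values had been seen, the log2 fold change between gates was 0.66 in tumor (limma, adjusted p = 0.00321) and 0.82 in spleen (limma, adjusted p = 0.00787). The sum does not depend on how reads shared among these 3 copies were divided.

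Of the BH3-only genes, Bcl2l11 encodes BIM, which removes T cells after activation and on loss of cytokines (chromosome 2, 128126038 to 128162547, plus strand). It was at 71.8, 74.6 and 75.7 CPM in spleen OX40minus and at 51.1, 43.4 and 40.2 CPM in spleen OX40plus. In tumor it was at 50.2, 51.3, 56.05 and 55.2 CPM in OX40minus and at 27.5, 33.6, 21.1 and 16.8 CPM in OX40plus. Spleen OX40minus was highest and tumor OX40plus lowest without overlap, and the 2 groups between them, spleen OX40plus and tumor OX40minus, overlapped. Within tumors the log2 fold change was −1.15 ± 0.16 (limma, adjusted p = 4.29e-05; 4 of 4 mice). In spleen it was −0.73 ± 0.19 (limma, adjusted p = 0.0211; 3 of 3 mice), which was not called after leaving out any of 5 of the 6 spleen samples, all but OX40plus mouse 1 (adjusted p from 0.0525 to 0.0832). The interaction of −0.42 was not called (95% interval −0.95 to 0.11; limma, adjusted p = 0.294). Tumor was lower by −0.90 ± 0.18 in OX40plus (limma, adjusted p = 0.000272) and by −0.48 ± 0.18 in OX40minus (limma, adjusted p = 0.0267). With the mouse number as a block the OX40minus difference was −0.40 and was not called (limma, adjusted p = 0.0639), and it was also lost without any 1 of the 3 spleen OX40minus samples or tumor OX40minus mouse 1 or 2. Ablim1, an actin-binding protein (r 0.983), Acss1 and Rasa3 were the genes most like Bcl2l11.

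Against BIM, the survival genes went different ways. The log2 ratio of Bcl2 to Bcl2l11 was 1.64 ± 0.10 and 1.67 ± 0.19 in the spleen groups and −0.57 ± 0.39 and −0.98 ± 0.45 in the tumor groups (SD, OX40minus first). For Mcl1 to Bcl2l11 it was 3.57 ± 0.03, 4.14 ± 0.28, 3.77 ± 0.08 and 4.30 ± 0.38 in spleen OX40minus, spleen OX40plus, tumor OX40minus and tumor OX40plus. For Bcl2l1 to Bcl2l11 it was 0.11 ± 0.23, 1.40 ± 0.22, 1.88 ± 0.12 and 3.60 ± 0.38 in the same order. In RNA terms, Bcl2 fell relative to Bcl2l11 between spleen and tumor, whereas Bcl2l1 rose relative to it in each step.

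Bbc3 encodes PUMA, a BH3-only protein induced by p53 and by FOXO factors (chromosome 7, 16308393 to 16318205, plus strand). It was at 45.3, 39.0 and 42.7 CPM in spleen OX40minus and at 50.2, 43.2 and 63.6 CPM in spleen OX40plus. In tumor it was at 13.5, 23.7, 22.5 and 21.1 CPM in OX40minus and at 14.3, 10.9, 9.73 and 8.14 CPM in OX40plus. The tumor gates overlapped through mouse 1, the lowest of OX40minus and the highest of OX40plus, and the spleen gates overlapped too, while both tumor groups lay below both spleen groups. Within tumors the log2 fold change was −0.90 ± 0.20 (limma, adjusted p = 0.00186; lower in 3 of 4 mice). In spleen it was 0.29 ± 0.23 and not called (95% interval −0.20 to 0.78; limma, adjusted p = 0.629). The interaction of −1.19 ± 0.30 was called (limma, adjusted p = 0.0182). It was not called with the mouse number as a block (limma, adjusted p = 0.0511), without spleen OX40minus mouse 2 (0.0543), or without the 3 samples that stood apart (−0.97, adjusted p = 0.087). Tumor was lower than spleen by −1.10 ± 0.22 in OX40minus (limma, adjusted p = 0.000327) and by −2.29 ± 0.22 in OX40plus (limma, adjusted p = 1e-07). Ankzf1 (r 0.982), Btbd16 and Ocel1 had the most similar profiles.

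Bcl2l11 and Bbc3 are known targets of FOXO transcription factors, and their promoters are shown because they were the only members with a match to the FOXO core TGTTTAC. The windows run from 250 bases before to 50 bases after an annotated start site (RefSeq, GRCm38.p6), 13 windows were available for the 8 genes, and both strands were searched. The stretches lie at chr7:16310038-16310157 for Bbc3 and at chr2:128125788-128125874 for Bcl2l11, both on the plus strand, with the match in capitals, read on the opposite strand in Bcl2l11.
Bbc3: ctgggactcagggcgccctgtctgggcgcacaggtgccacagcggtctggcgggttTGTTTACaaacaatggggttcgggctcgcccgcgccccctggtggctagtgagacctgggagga
Bcl2l11: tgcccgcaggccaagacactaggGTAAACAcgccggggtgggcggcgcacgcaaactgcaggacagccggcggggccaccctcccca
The matches begin at −167 and −227 bases from the start site. Of 32851 mouse promoter windows of 300 bases, 3.65% held this motif, and it was 1 of 7 motifs searched; a match describes the letters only. The NF-kB motif was found in windows of Bbc3 and Bcl2l1 (8.46% of all windows) and the p53 half-site in Bax (8.36%). The STAT motif TTCNNNGAA (8.3% of all windows), the AP-1 motif (5.2%), the RUNX motif TGTGGTT (5.27%) and the CRE motif TGACGTCA (1.79%) had no match in these letters. Foxo1, the main FOXO factor of T cells, was at means of 437, 355, 413 and 267 CPM in spleen OX40minus, spleen OX40plus, tumor OX40minus and tumor OX40plus. It was lower in OX40plus in tumor (log2 fold change −0.65; limma, adjusted p = 0.000399) and not called in spleen (−0.30; limma, adjusted p = 0.235). Foxo3 differed by tissue, with means of 132 and 121 CPM in the spleen groups and 10.0 and 10.8 CPM in the tumor groups.

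Bax, the pore-forming effector (chromosome 7, 45461697 to 45466898, minus strand), differed little. It was at 153, 135 and 122 CPM in spleen OX40minus and at 123, 121 and 165 CPM in spleen OX40plus. In tumor it was at 187, 182, 190.3 and 172 CPM in OX40minus and at 162, 166, 192 and 231 CPM in OX40plus. The 2 gates overlapped in each tissue. The log2 fold change between gates was 0.02 in tumor (95% interval −0.23 to 0.28; limma, adjusted p = 0.895) and −0.01 in spleen (95% interval −0.31 to 0.29; limma, adjusted p = 0.995), and the sign of both turned with library totals alone as the scaling (−0.0034 and 0.033), so no direction is given. Bax was higher in tumor than in spleen by 0.43 ± 0.13 in OX40minus (limma, adjusted p = 0.0102), a call lost without spleen OX40minus mouse 3 (0.059). In OX40plus it was higher by 0.46 ± 0.13 (limma, adjusted p = 0.00578), although spleen OX40plus mouse 3 lay within the range of the tumor samples. Serf2 (r 0.978), Brk1 and Pycard had the profiles most like that of Bax.

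**Figure D3:**
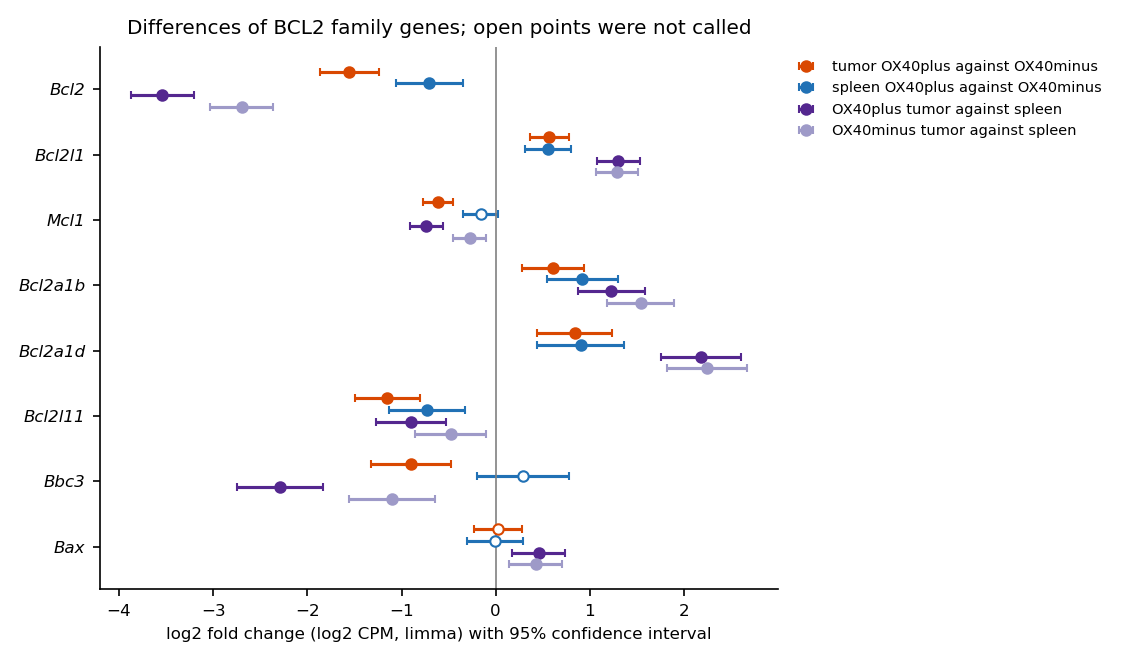
Log2 fold changes of the 8 genes in the 4 comparisons, with 95% confidence intervals from limma; filled points were called at an adjusted p under 0.05 and open points were not. The intervals of Bax between gates straddle 0 in both tissues, while those of Bcl2 lie below 0 in all 4 comparisons, down to −3.54.

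The 8 members were set beside 45 other tested genes of the apoptosis machinery: further BCL2 relatives, caspases and apoptosome genes, inhibitors of apoptosis (IAPs) and death receptor genes. Of these 45, 14 were higher and 7 lower in tumor OX40plus than in tumor OX40minus, with a median log2 fold change of 0.02; of all tested genes 20.5% were higher and 21.8% lower. In spleen 6 were higher and 2 lower (median 0.10), against 4.99% higher and 4% lower of all tested genes. Between tissues 23 were higher and 7 lower in tumor OX40minus (median 0.23), and 23 higher and 11 lower in tumor OX40plus (median 0.30), against medians over all tested genes of 0.00 and −0.07. Of all tested genes 32.3% were higher and 30.5% lower in tumor OX40minus, and 32.9% and 35.5% in tumor OX40plus, so the counts over both directions were close to the background.

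Among the other BH3-only genes, Bid, whose protein links death receptors to mitochondria, rose with the OX40 gate while Bcl2l11 fell. Its means were 49.0 and 67.7 CPM in spleen and 86.4 and 111 CPM in tumor, OX40minus first, with log2 fold changes of 0.46 in spleen (limma, adjusted p = 0.00535) and 0.37 in tumor (limma, adjusted p = 0.00232). Bmf, a BH3-only gene known from cells that lose attachment, was at means of 11.8 and 11.1 CPM in spleen and of only 1.96 and 1.11 CPM in tumor. It was lower in tumor by −2.60 ± 0.69 in OX40minus (limma, adjusted p = 0.00366) and −3.81 ± 0.69 in OX40plus (limma, adjusted p = 0.000127). Bad and Bik were higher in tumor in both gates, Bik by 1.70 in OX40minus and 1.80 in OX40plus. Bik was low throughout, at means of 1.51 and 1.19 CPM in spleen and 4.80 and 4.31 CPM in tumor. Of the further survival genes, Bcl2l2, which encodes BCL-W, was lower in tumor in both gates (−0.85 and −0.92) and was not called between gates. Among 12 other BCL2-related genes 4 were higher and 1 lower in tumor OX40plus, beside 20.5% and 21.8% of all tested genes. The mitophagy receptor gene Bnip3 stood out by tissue, with means of 5.0 and 5.5 CPM in spleen and 152 and 253 CPM in tumor (log2 fold changes 4.93 and 5.52; limma, adjusted p = 4.94e-14 and 1.97e-14).

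Of the caspases and apoptosome genes, 7 of 13 were higher and 2 lower in tumor OX40plus, and 2 were higher and none lower in spleen OX40plus, beside 20.5% and 21.8% of all tested genes in tumor and 4.99% and 4% in spleen. Casp6 and Cycs, which encodes cytochrome c, were higher in tumor OX40plus by 0.74 and 0.80, and both had a called interaction (0.70 and 0.79; limma, adjusted p = 0.0174 and 0.0357). Casp9, the initiator caspase of the apoptosome, was lower by −0.76 in tumor OX40plus (limma, adjusted p = 0.00112).

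Of the 7 IAP genes, Birc5 (survivin, an inhibitor of apoptosis required for cell division) was higher in OX40plus in tumor by 1.21 (limma, adjusted p = 1.11e-05) and in spleen by 0.71 (limma, adjusted p = 0.0134), and Birc3 was lower in tumor OX40plus by −0.45. Xiap, the direct caspase inhibitor, was lower in tumor by −1.82 in OX40minus and −2.01 in OX40plus (limma, adjusted p = 4.7e-07 and 1.01e-07). Of 7 death receptor genes, 1 was higher and 3 were lower in tumor OX40plus, beside 20.5% and 21.8% of all tested genes. Among those lower was Tnfrsf10b, the receptor of TRAIL (−0.60; limma, adjusted p = 0.00422). Fasl was higher in tumor in both gates, by 2.86 in OX40minus and 1.87 in OX40plus.

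**Figure D4:**
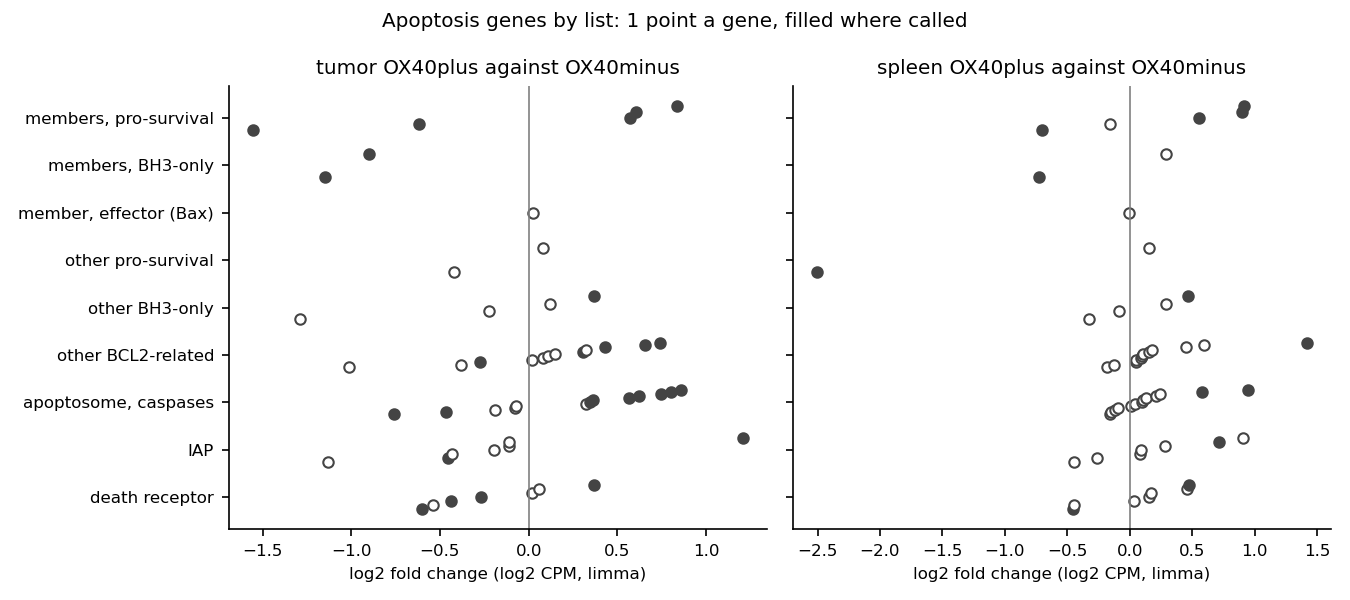
Log2 fold changes between OX40 gates in tumor (left) and spleen (right) for the BCL2 family genes and the other apoptosis genes, 1 point per gene, filled where called at an adjusted p under 0.05. The pro-survival members lie on both sides of 0 in both tissues, and the caspase row holds 7 filled points above 0 in tumor and 2 in spleen.

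Genes upstream of the family were counted in the same way. Of 14 tested regulators, 2 were higher and 7 lower in tumor OX40plus, and 1 was lower in spleen OX40plus, beside 42.3% and 8.99% of all tested genes called. The gene lower in spleen was Stat5b, a transcription factor of interleukin-2 and interleukin-7 signalling, with log2 fold changes of −1.06 in tumor (limma, adjusted p = 3.12e-07) and −0.35 in spleen (limma, adjusted p = 0.0434) and an interaction of −0.71 (limma, adjusted p = 0.00325). Il2rg, the shared cytokine receptor chain, was lower in tumor OX40plus by −0.55. Nfkb1 was lower in tumor than in spleen, by −1.80 in OX40minus and −2.19 in OX40plus. Of 17 tested p53 target genes, 4 were higher and 5 lower in tumor OX40plus and 3 higher in spleen OX40plus, beside the same 42.3% and 8.99%. Gtse1 (1.35) and Fdxr (1.16) were among those higher and Sesn1 (−0.86) among those lower in tumor. Trp53, the gene of p53 itself, was higher by 0.37 in tumor OX40plus (limma, adjusted p = 0.00204).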

How the data were processed

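RNA of sorted Tregs was extracted with a Qiagen RNeasy Micro kit and made into Illumina TruSeq libraries, per the labels' protocols. The submitters' processing notes name bcl2fastq 2.19, kallisto, limma and the build mm10; the sources used here do not give their order, the scaling, the summary per gene or the use of strand. The deposited table, called gene counts by the authors, holds log2 values per gene and library, which fit log2 CPM with 0.5 counts added. They were inverted to CPM and estimated counts. The plan foresaw a count model had the table held counts; limma was used instead.

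The 2 libraries of a mouse and gate agreed near sampling noise (median chi-square per gene 0.495 to 0.578, where sampling alone gives 0.455, and 1.43 to 12.8 between mice), so their mean log2 CPM counted as 1 sample. Genes with at least 0.883 CPM (10 counts in the smallest library) in at least 3 samples were tested with limma 3.58.1 in R 4.3.3 (4 groups in 1 fit, mean-variance trend, two-sided, Benjamini-Hochberg over 11379 genes, called under 0.05). The script was tested on simulated data. Intervals, ± SE and folds are on the log2(CPM) scale. Mouse numbers in the titles pair gates within a tissue; correlations of paired deviations were −0.0287 to 0.0541 in tumor and −0.318 to 0.294 in spleen, and the blocked fit is given where it changes a call. Whether the spleen and tumor of 1 number share a mouse is not stated.

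Members and gene lists were chosen with earlier results of these data known. Named were all members, per list up to 3 called genes of smallest adjusted p per comparison, the listed BCL2 and BH3-only relatives, and per member the 3 genes with the highest Pearson correlation; Casp9 and Trp53 were chosen after their values were seen, and some genes that the rule names are not reported here. Gene positions are GENCODE vM21 and promoters RefSeq GRCm38.p6. Alternatives were other scalings, filters, added counts, weights (limma-voom), groups, single libraries, a mouse block and each sample left out.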

Additional observations from a re-analysis of the deposited data

Results flagged for a closer look

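3 members had an OX40 difference that itself differed between tumor and spleen by the interaction test. Tnfrsf4, the target of the sort, had a called interaction too (−0.69; limma, adjusted p = 0.0146), its gate difference being smaller in tumor. For Bcl2 the interaction was −0.85 on the log2 scale, with the gate difference at −1.55 in tumor and −0.71 in spleen. This call was lost without spleen OX40minus mouse 1 (limma, adjusted p = 0.0634) or mouse 2, or without spleen OX40plus mouse 1 or 2. For Mcl1 it was −0.46, with −0.62 in tumor and −0.16 in spleen. For Bbc3 it was −1.19, with −0.90 in tumor and 0.29 in spleen, and the call did not hold in the blocked fit. Without the 3 samples that stood apart, the Bcl2 and Bbc3 interactions were not called. Of 6 dendritic cell markers, Flt3 (−2.18; limma, adjusted p = 0.0151) and Zbtb46 (−1.29; limma, adjusted p = 0.0151) had a called interaction, in the same direction. Of 10 macrophage markers 1 had one, Cd68, in the opposite direction (1.68; limma, adjusted p = 0.00296). Of 6 Treg markers, 1 had a positive and 3 had a negative called interaction. Of 7 NK cell markers 1 had a positive and 1 a negative one, and of 2 CD8 T cell markers 1 had a negative one. None was called among the neutrophil, B cell and melanoma markers. These counts stand beside 12.4% of all tested genes. The part of these lists, and of the unequal Tnfrsf4 difference, in the 3 results was not tested. In the 16 tumor groups of 4 samples examined for the 8 genes, none had a sample far from the others.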

How the results depend on the processing

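Of 1072 alternative values for the 40 member results, 1016 kept direction and call, 29 lost the call and 27 changed sign, and 28 results did neither under any alternative. In the fit with mouse number as a replicate block, 7 members were called in tumor, 5 in spleen, 8 and 7 between tissues (OX40plus, OX40minus) and 2 for the interaction. Leaving out 1 sample gave 7 to 7 called members in tumor, 2 to 5 in spleen, 8 to 8 between tissues in OX40plus, 6 to 8 in OX40minus and 1 to 3 for the interaction. Sign changes were in uncalled values near 0. With library totals alone, Bcl2l1 had an interaction of −0.054, and Bax had −0.0034 in tumor, 0.033 in spleen and −0.036 for the interaction. With 1 library of each pair, Bax was −0.0080 in tumor (library 2) and 0.0286 in spleen (library 1). Without tumor OX40plus mouse 4 and spleen OX40plus mouse 3, chosen after seeing the data, Bax in tumor was −0.081 and the Bcl2a1d interaction was 0.0091. With spleen OX40minus mouse 1 also left out, 3 members were called in spleen and 1 for the interaction, Bax in tumor was −0.081 and the Bax interaction was −0.014. Leaving out 1 sample gave interactions of −0.075 to 0.119 for Bcl2l1, −0.302 to 0.121 for Bcl2a1d and −0.074 to 0.176 for Bax, and Bax differences of −0.081 to 0.091 in tumor and −0.152 to 0.078 in spleen. Over all genes, 1869 were called in spleen with only those 2 groups fitted, 666 without spleen OX40minus mouse 2 and 673 without spleen OX40plus mouse 1, against 1023; the interaction had 877 and 831 without those samples, against 1415. The causes were not tested. Spleen results rest on 3 mice a gate, and the assignment of reads among A1 copies cannot be checked from the table.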
